A study of Homo sapiens with 24 samples.

Results

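The Toll-like receptors are 10 genes in human cells, TLR1 to TLR10, and their transcripts were followed through 8 conditions of HEK293 cells, a human embryonic kidney line. Every probe set that the array's gene table assigns to one of these symbols was taken, which gave 19 of 54675 probe sets, with 1 to 4 for each gene. HEK293 cells were transfected for 24 h with pCDNA3-Flag-SIRT6 WT (SIRT6 cells), with the pCDNA3-Flag-SIRT6 H133W mutant (H133W cells) or with pCDNA3 alone (empty vector cells), or received no DNA (untransfected cells). SIRT6 is an NAD-dependent deacetylase of histones, and H133W is its catalytically dead form. Cells of each kind were then given 10 ng/ml TNFα or an equal volume of PBS with 0.1% BSA, and total RNA of 3 labelled biological replicates per condition was hybridised to 24 Affymetrix arrays. Stimulation lasted 4 h according to the methods, while the series' own design entry names 1 h. Transfection was transient and reached only part of the cells. The arrays of transfected cells therefore read a mixture of cells with and without plasmid. The comparisons ask whether TNFα changes the receptors and whether the plasmids change their level without and with TNFα. Values are log2 intensities as the authors normalized them. A limma fit over all 24 arrays was used, with Benjamini-Hochberg adjustment across all 54675 probe sets. A probe set was called, and is said to have risen or fallen, where the adjusted p was below 0.05 and the fold change above 1.5. Nothing in the labels says more about how the replicates were separated, so that the p values measure the spread between these arrays.

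Toll-like receptors are membrane proteins that recognise molecules of microbes. TLR1, TLR2, TLR4, TLR5, TLR6 and TLR10 sit at the cell surface, where TLR2 with TLR1 or TLR6 binds lipopeptides, TLR4 binds lipopolysaccharide and TLR5 binds flagellin. TLR3, TLR7, TLR8 and TLR9 sit in endosomes and bind nucleic acids, TLR3 double-stranded RNA, TLR7 and TLR8 single-stranded RNA, and TLR9 DNA with unmethylated CpG. Their shared TIR domain recruits adaptors such as MYD88 or TICAM1, and the signal ends at NFκB and interferon regulatory factors. TNFα reaches NFκB through its own receptors. HEK293 cells are widely used as recipients of transfected Toll-like receptors because they carry little of most of these receptors themselves.

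Promoter sequence was looked up for the members in a RefSeq table (GRCh38.p14) that holds 7 of the 10 genes, namely TLR2, TLR3, TLR4, TLR5, TLR6, TLR8 and TLR9. The windows run from 250 bases before to 50 bases after the annotated start, of which the first 280 bases are printed. TLR5 and TLR3 are shown because each had a probe set that changed, and TLR2 because it alone of the 7 windows held the κB letters searched. Capitals mark matches to GGNNTTTCC (κB), TGANTCA (AP-1) or GAAANNGAA (the core of an interferon-stimulated response element), searched on both strands.
TLR5, chr1:223143219-223143498, minus strand: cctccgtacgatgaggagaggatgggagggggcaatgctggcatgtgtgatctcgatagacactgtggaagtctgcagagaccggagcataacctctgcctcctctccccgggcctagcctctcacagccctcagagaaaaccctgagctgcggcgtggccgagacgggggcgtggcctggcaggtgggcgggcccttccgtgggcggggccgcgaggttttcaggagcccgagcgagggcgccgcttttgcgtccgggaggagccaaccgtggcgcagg
TLR3, chr4:186068906-186069185, plus strand: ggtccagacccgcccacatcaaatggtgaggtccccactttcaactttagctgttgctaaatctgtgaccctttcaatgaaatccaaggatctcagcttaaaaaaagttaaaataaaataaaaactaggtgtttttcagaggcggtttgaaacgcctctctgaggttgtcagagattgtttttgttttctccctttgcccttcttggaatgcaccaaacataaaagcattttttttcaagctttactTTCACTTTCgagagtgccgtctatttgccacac
TLR2, chr4:153684030-153684309, plus strand: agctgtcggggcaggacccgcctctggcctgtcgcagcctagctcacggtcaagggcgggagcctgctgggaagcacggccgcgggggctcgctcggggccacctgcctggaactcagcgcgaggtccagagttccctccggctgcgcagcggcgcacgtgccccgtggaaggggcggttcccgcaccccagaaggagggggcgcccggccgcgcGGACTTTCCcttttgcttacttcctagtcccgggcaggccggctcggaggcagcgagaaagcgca
The match in TLR2 lies 35 bases before the start, and that in TLR3 is the response element core on the other strand across the start. None of the 3 motifs was found in the windows of TLR5, TLR4 and TLR6, while TLR8 held 1 response element core and TLR9 held 1 AP-1 match. Among 35116 RefSeq windows of 300 bases, 6.26% held the κB letters, 7.71% the AP-1 letters and 8.11% the response element core. A match is a match of letters, not a binding site, and these κB letters are only a part of the forms that NFκB can bind.

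All 19 probe sets were dim, with means over the 24 arrays in percentiles 0.0713 to 48.9 of all probe sets. Of 12 genes fixed as markers of HEK293 cells, 9 lay above the median and 3 below it, KRT19, NEFM and PAX2. None of 13 measured blood cell markers, 3 endothelial and 4 fibroblast markers lay above the median, and the mean log2 value of the blood list ran from 3.18 to 3.41 over the conditions. Neither probe set of SIRT6 was called in SIRT6 cells (0.07 and 0.75 without TNFα, 0.15 and 0.59 with it). In H133W cells without TNFα 1 of 2 rose (0.08 and 1.15, adjusted p = 0.0357 for the second). With TNFα neither was called there (0.48, adjusted p = 0.00733 but under the fold threshold, and 0.80, adjusted p = 0.12). Which part of the transcript they read is not stated. The paper reports that Western blots of extracts of these cells showed both proteins. Array quality was uneven: H133W with TNFα replicate 3 had the lowest limma array weight (0.0844) and the widest 3′ to 5′ difference of β-actin, 3.03 on the log2 scale. Empty vector replicate 2 (weight 0.383, β-actin 2.05) and untransfected replicate 2 (weight 0.311, β-actin 1.65) had the next lowest weights, and the other 21 arrays had weights of 0.439 to 3.1 and β-actin differences of 1.33 to 1.79.

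TLR7 was the Toll-like receptor that was called with TNFα in every kind of cell. Probe set 220146_at read 6.00, 6.15 and 6.11 in SIRT6 cells with TNFα, against 2.97, 2.64 and 2.94 in SIRT6 cells without it. H133W cells with TNFα had 5.62, 5.84 and 6.25, against 3.14, 2.51 and 2.81 in those without it. These values left a gap of more than 2 log2 units between the stimulated and the unstimulated arrays of either kind. In empty vector cells the values were 5.27, 5.02 and 5.38 with TNFα, against 2.40, 2.84 and 2.50 without it. Untransfected cells gave 5.11, 5.16 and 4.78 with TNFα, against 2.60, 2.61 and 2.62 without it. No array without TNFα reached the lowest array with TNFα in any of the 4 kinds of cells. The rise was 3.24 ± 0.17 (SE) in SIRT6 cells (9.42-fold, adjusted p = 6.46e-11), 3.08 in H133W cells (8.47-fold, adjusted p = 1.98e-10), 2.64 in empty vector cells (6.25-fold, adjusted p = 1.55e-09) and 2.40 in untransfected cells (5.30-fold, adjusted p = 7.49e-09). TLR7 ranked 23rd, 19th, 40th and 46th of all probe sets by p in these comparisons. Its rise was kept in all 4 kinds of cells when any single array of the comparison was left out. Total RNA of a culture does not tell whether more cells carried the transcript or each cell carried more of it.

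A second TLR7 probe set, 222952_s_at, moved less. It read 4.22, 4.12 and 4.12 in SIRT6 cells with TNFα, against 3.37, 3.41 and 3.36 without it, which was a rise of 0.77 (1.71-fold, adjusted p = 0.00151). H133W cells had 4.17, 3.85 and 3.68 with TNFα, against 3.25, 3.16 and 3.34 without it, a rise of 0.65 (1.57-fold, adjusted p = 0.007). The arrays of either kind of cell did not overlap. Without H133W with TNFα replicate 1 the second rise was 0.51, under the fold threshold. In empty vector cells the change of 0.39 (adjusted p = 0.167) and in untransfected cells that of 0.23 (adjusted p = 0.721) were not called, and untransfected replicate 2 alone, at 3.98, lay above all 3 stimulated arrays of its kind. The name ending _s_at marks a probe set that can read more than 1 transcript.

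**Figure D1:**
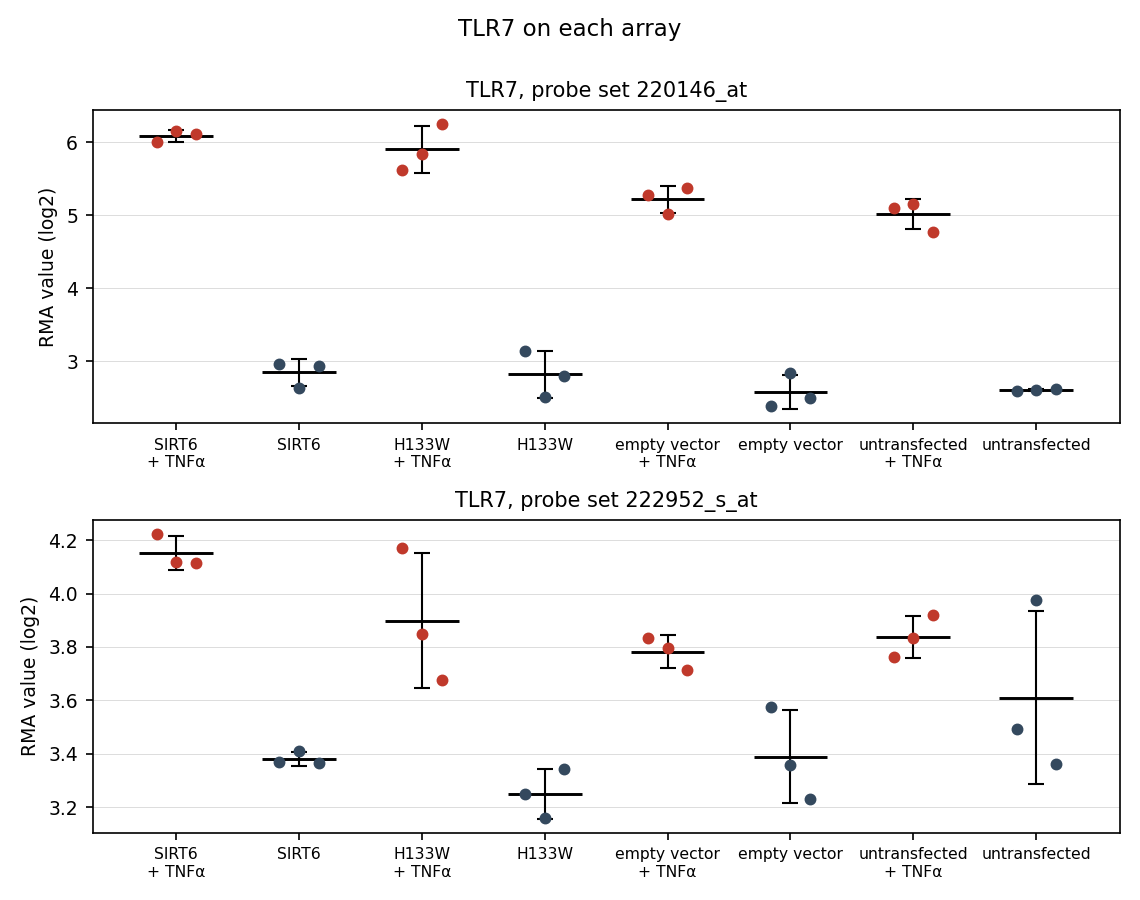
The RMA values (log2, y axis) of both TLR7 probe sets on each of 3 arrays per condition (x axis, red with TNFα and dark without it) are drawn with the mean (line) and SD (bar). For 220146_at all 12 arrays with TNFα lie at 4.78 or above and all 12 without it at 3.14 or below.

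TLR5, the receptor of flagellin, rose with TNFα in SIRT6 cells, where its single probe set 210166_at read 4.90, 5.14 and 4.94 with TNFα, against 4.19, 3.85 and 4.03 without it. This was a difference of 0.97 ± 0.13 (SE, 1.96-fold, adjusted p = 0.000168), which was kept without any single array of the comparison. H133W cells had 4.41, 4.58 and 4.01 with TNFα, against 3.99, 4.07 and 3.91 without it, so that the groups overlapped and the change of 0.34 was not called (adjusted p = 0.183). The lowest of the 3 stimulated H133W values came from replicate 3, the array of the lowest weight. Empty vector cells had 4.90, 4.71 and 4.46 with TNFα, against 4.04, 4.24 and 4.36 without it (0.48, adjusted p = 0.0831). Untransfected cells had 4.66, 4.68 and 4.41 with TNFα, against 4.18, 4.29 and 4.17 without it (0.37, adjusted p = 0.288). In both kinds of control cells every stimulated array was above every unstimulated one, though the changes did not pass the test. Without empty vector with TNFα replicate 3, the change in empty vector cells was 0.59 and passed (adjusted p = 0.0471).

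Over all 19 probe sets, TNFα raised 3 in SIRT6 cells, 2 in H133W cells, and 1 each in the empty vector and the untransfected cells, and lowered none. Of all 54675 probe sets the same rule called 0.845% in SIRT6 cells, 1.12% in H133W cells, 0.86% in empty vector cells and 0.775% in untransfected cells, in either direction. The median change of the 19 probe sets was 0.02, 0.06, -0.01 and 0.02 in the same order, beside -0.02, 0.00, -0.02 and -0.01 for all probe sets. Members other than TLR7 and TLR5 moved by at most 0.43 in either direction, the widest being TLR3 206271_at in untransfected cells (0.43, adjusted p = 0.25), and none was called. Whether a response differed between kinds of cells was tested as a difference of differences. For TLR7 220146_at the response of SIRT6 cells exceeded that of empty vector cells by 0.59 (95% interval 0.10 to 1.08, adjusted p = 1), and that of H133W cells exceeded it by 0.44 (-0.05 to 0.92, adjusted p = 0.567). The response of TLR5 was lower in H133W cells than in SIRT6 cells by a difference of -0.63 (-1.03 to -0.23, adjusted p = 0.851). By limma 0 of 19 members passed in any of these tests. At an unadjusted p under 0.05 there were 2 members for SIRT6 against empty vector responses, 1 for H133W against empty vector, 2 for H133W against SIRT6 and 0 for empty vector against untransfected responses. A plain linear model called 0 members in each as well. Over all probe sets the shares called were 0%, 0.00366%, 0% and 0%, with 1096, 4623, 2192 and 1321 probe sets at an unadjusted p under 0.05 in that order. A higher call count in SIRT6 cells is therefore no shown difference in response.

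**Figure D2:**
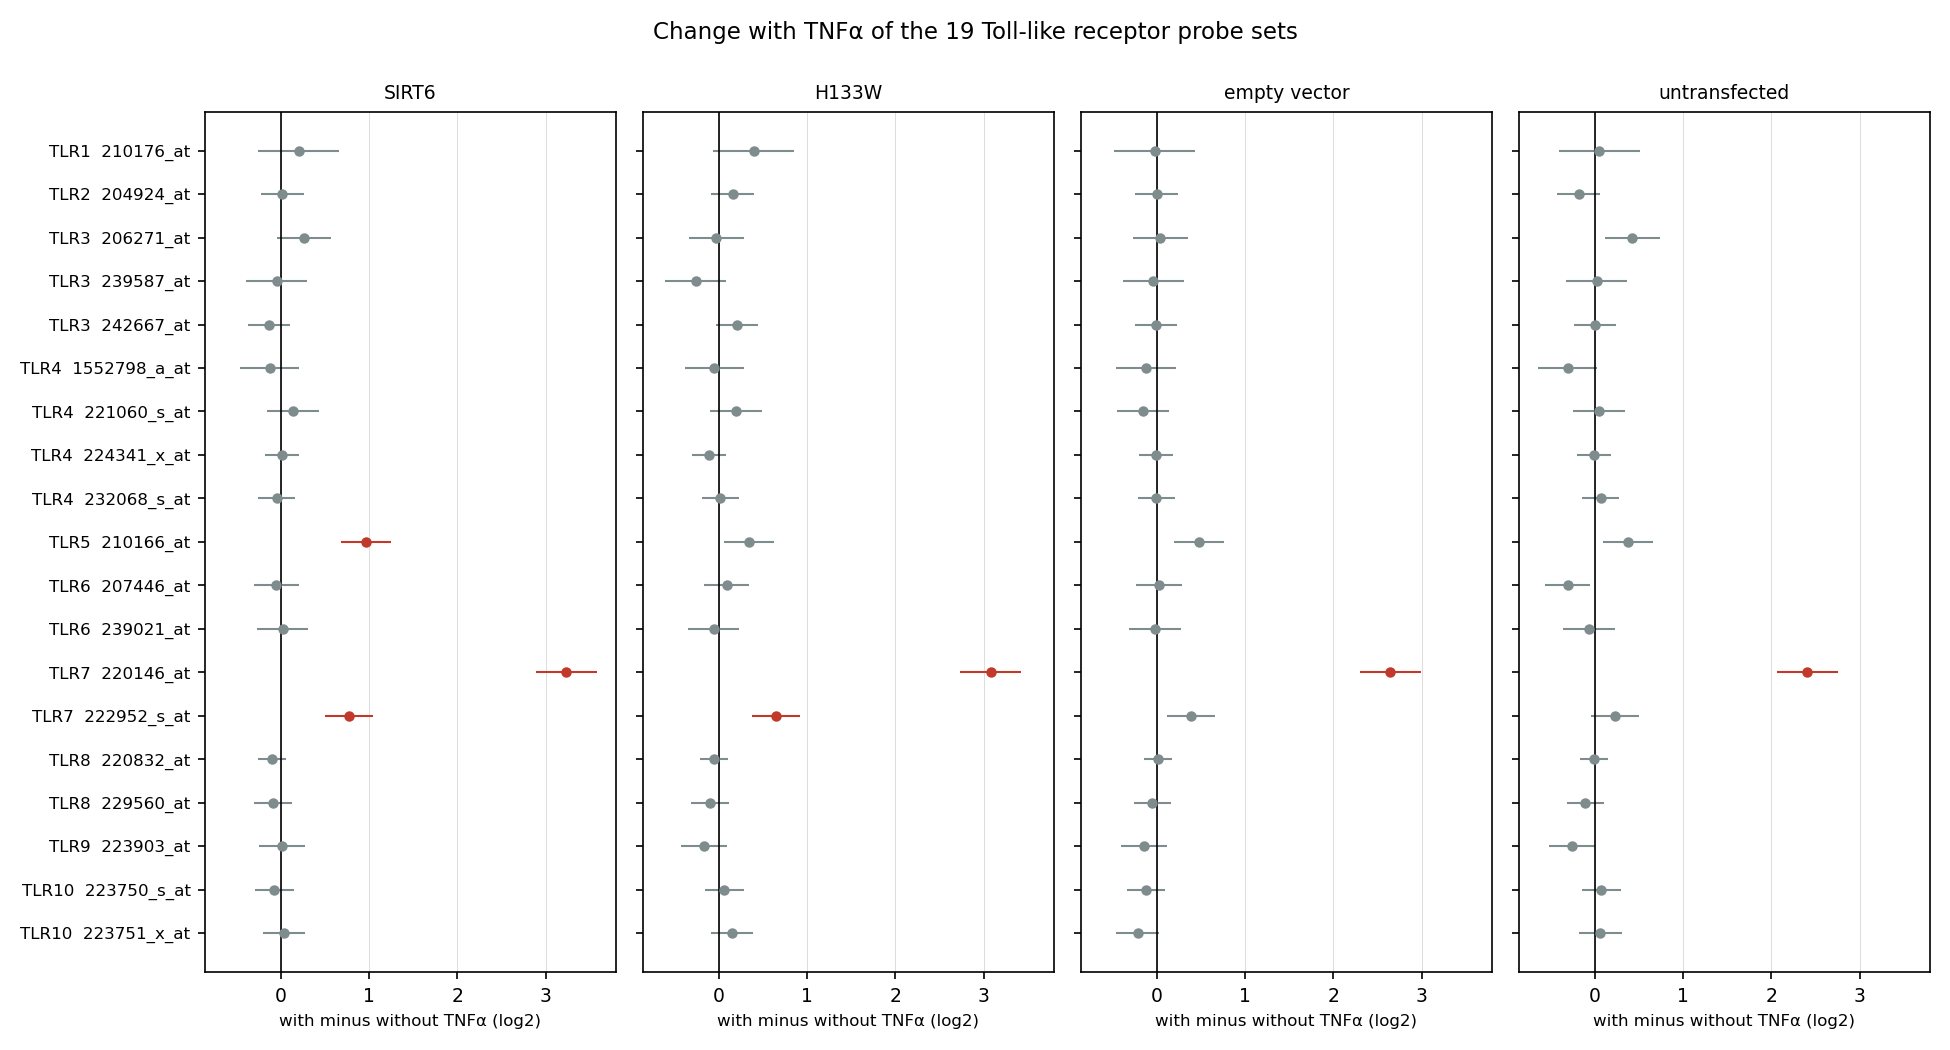
The difference with minus without TNFα (log2, x axis) is plotted for each of the 19 probe sets (rows) in the 4 kinds of cells (panels), with 95% intervals and with called probe sets in red. TLR7 220146_at stands at 3.24, 3.08, 2.64 and 2.40 from the left panel to the right, and the only other called points are TLR7 222952_s_at in SIRT6 and H133W cells and TLR5 in SIRT6 cells.

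With TNFα, TLR7 220146_at was higher in SIRT6 cells than in empty vector cells. All 3 arrays of SIRT6 cells, from 6.00 to 6.15, lay above all 3 of empty vector cells, from 5.02 to 5.38, and the difference was 0.86 ± 0.17 (SE, 1.82-fold, adjusted p = 0.0389). It was the only member called, beside 0.0695% of all probe sets, and its rank by p was 61. Leaving out any 1 of the 6 arrays ended the call, with differences of 0.76 to 0.94 and adjusted p of 0.0812 to 0.273. The plain linear model did not call it. Among the genes that TNFα changed most, the paper names only TLR7 as significantly raised with SIRT6, which the plain linear model here did not reproduce. The other TLR7 probe set differed by 0.37 (adjusted p = 0.504), again with no overlap of the arrays. Without TNFα, SIRT6 cells and empty vector cells differed by 0.27 in TLR7 220146_at (95% interval -0.07 to 0.62, adjusted p = 1). In that comparison 0 members were called by limma and 0 by the plain linear model, 1 member had an unadjusted p under 0.05, and 0.0348% of all probe sets were called.

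The H133W mutant gave a rise of TLR7 as well. H133W cells with TNFα, at 5.62 to 6.25, lay above empty vector cells with TNFα, at 5.02 to 5.38, by 0.68 ± 0.17 (SE, 1.60-fold, adjusted p = 0.0197). The highest value, 6.25, came from the array of lowest weight, and without it the difference was 0.51 (adjusted p = 0.106). The call also ended without empty vector with TNFα replicate 1 (0.71, adjusted p = 0.0533) or replicate 2 (0.58, adjusted p = 0.107). Between H133W and SIRT6 cells with TNFα, TLR7 220146_at differed by -0.18 (95% interval -0.53 to 0.16, adjusted p = 0.633). From the highest mean to the lowest, the levels of this probe set were 6.09 ± 0.0776 in SIRT6 cells with TNFα, 5.90 ± 0.318 in H133W cells with TNFα, 5.22 ± 0.185 in empty vector cells with TNFα and 5.01 ± 0.207 in untransfected cells with TNFα (SD, n = 3 each). Then came the cells without TNFα, with 2.85 ± 0.185 in the SIRT6, 2.82 ± 0.316 in the H133W, 2.61 ± 0.00811 in the untransfected and 2.58 ± 0.23 in the empty vector cells. Among neighbours in this order that were compared, only H133W and empty vector cells with TNFα differed beyond the test's threshold.

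TLR3, the sensor of double-stranded RNA, was called lower in H133W cells by 1 of its 3 probe sets. Probe set 239587_at read 4.90, 4.95 and 4.71 in H133W cells, against 5.63, 5.45 and 5.69 in empty vector cells, both without TNFα. The difference was -0.73 ± 0.16 (SE, 0.602-fold, adjusted p = 0.0157). With TNFα the values were 4.55, 4.41 and 4.83 in H133W cells, against 5.52, 5.46 and 5.67 in empty vector cells, a difference of -0.96 (0.516-fold, adjusted p = 0.00147). The arrays of H133W cells were separate from those of empty vector cells in either setting. Without TNFα the call ended when H133W replicate 3 (-0.66, adjusted p = 0.0967), empty vector replicate 1 (-0.71, adjusted p = 0.0593) or empty vector replicate 3 (-0.68, adjusted p = 0.0614) was left out. With TNFα the call was kept without any single array of the comparison. SIRT6 cells held values in between, at 5.33, 5.08 and 5.14 with TNFα and at 5.29, 5.12 and 5.27 without it. They lay below empty vector cells by -0.37 with TNFα (adjusted p = 0.709) and by -0.36 without it (adjusted p = 0.876). Compared directly, H133W cells had lower means than SIRT6 cells, 4.59 against 5.18 with TNFα and 4.855 against 5.227 without it. Neither of these direct differences was called. Untransfected cells had 5.48, 5.62 and 5.34 with TNFα and 5.65, 4.91 and 5.81 without it, where the lowest came from replicate 2, an array of low weight.

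The other TLR3 probe sets were not called, though 206271_at was lower in H133W cells too. For 206271_at, H133W cells had 4.61, 4.57 and 4.75 with TNFα, against 4.84, 5.04 and 5.19 in empty vector cells with TNFα. The difference was -0.38 (95% interval -0.68 to -0.07, adjusted p = 0.151), and the arrays did not overlap. Without TNFα it read 4.91, 4.63 and 4.47 in H133W cells, against 4.85, 4.96 and 5.13 in empty vector cells. These arrays overlapped, and the difference was -0.31 (95% interval -0.618 to -0.002, adjusted p = 0.335). The dimmer 242667_at differed by 0.01 with TNFα (adjusted p = 0.977) and by -0.20 without it (adjusted p = 0.434). In none of the 4 kinds of cells was a TLR3 probe set called in the TNFα response. The largest difference was 0.43 for 206271_at in untransfected cells (95% interval 0.12 to 0.74, adjusted p = 0.25).

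**Figure D3:**
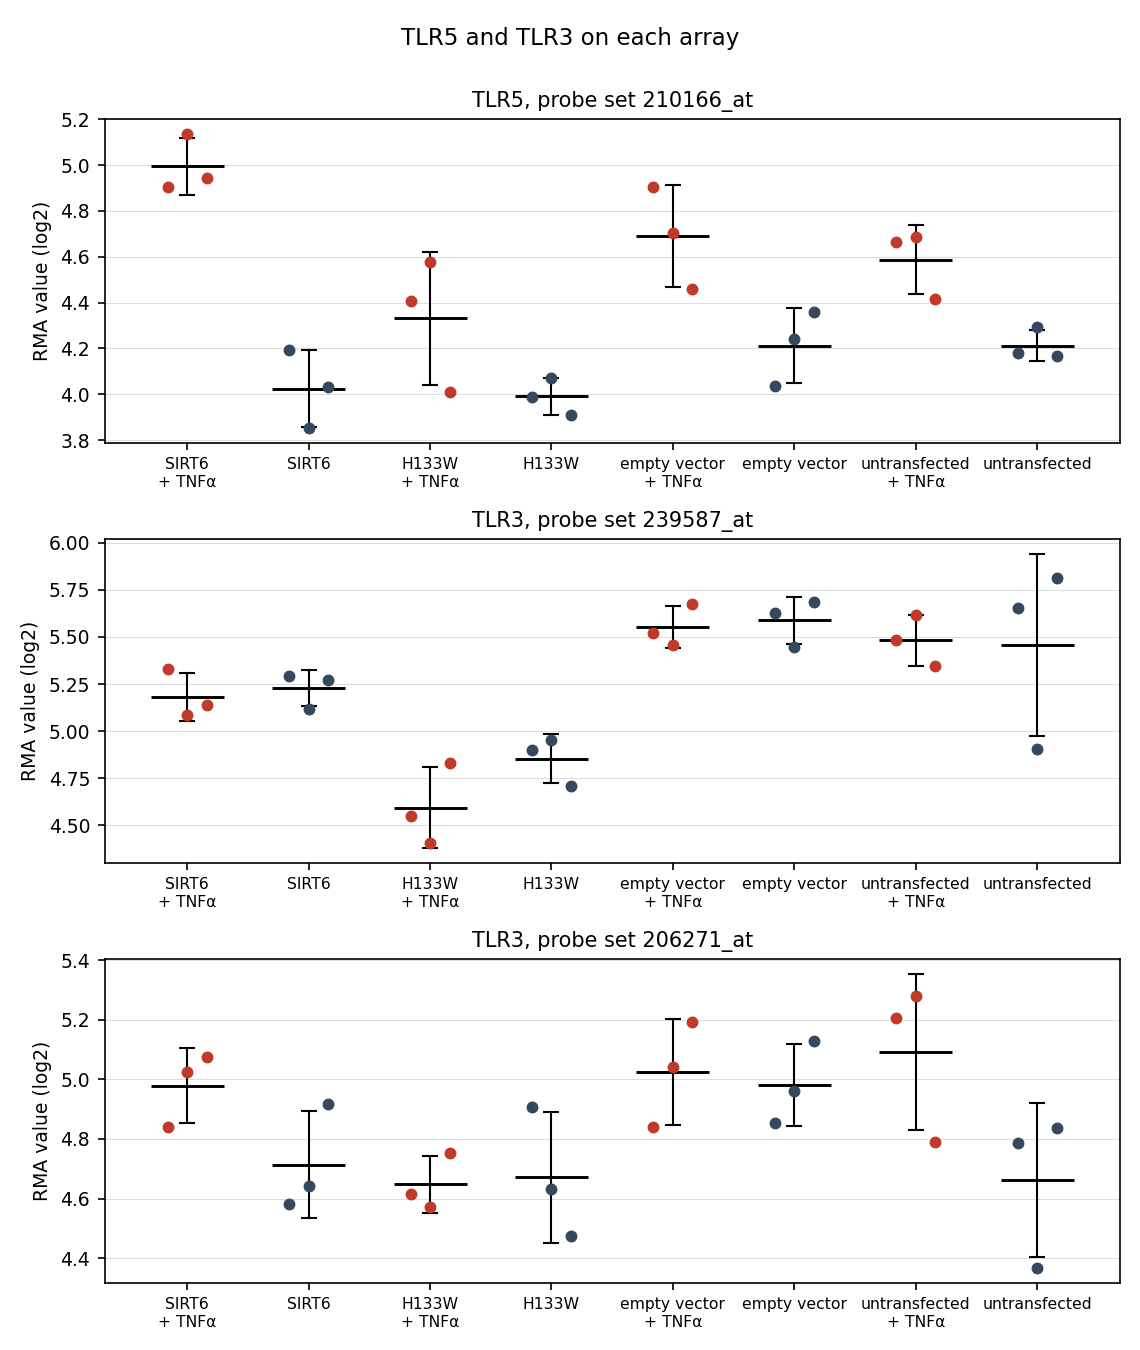
The RMA values (log2, y axis) of TLR5 and of 2 TLR3 probe sets on each array are drawn by condition (x axis, red with TNFα and dark without it), with the mean (line) and SD (bar) of 3 arrays. TLR5 is highest in SIRT6 cells with TNFα, at 4.90 to 5.14, and TLR3 239587_at is lowest in H133W cells, at 4.41 to 4.95 over both settings.

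Of the 19 members, H133W cells without TNFα had 1 that fell relative to empty vector cells, where 0.77% of all probe sets were called, and H133W cells with TNFα had 1 that rose and 1 that fell, where 1.4% were called. Between H133W and SIRT6 cells with TNFα, TLR5 was lower in H133W cells, at 4.41, 4.58 and 4.01, against 4.90, 5.14 and 4.94 in SIRT6 cells. The difference of -0.66 (0.631-fold, adjusted p = 0.0178) was 1 member called beside 0.333% of all probe sets. It was not called without H133W with TNFα replicate 3 (-0.50, adjusted p = 0.0846), or without SIRT6 with TNFα replicate 2 (-0.59, adjusted p = 0.108) or replicate 3 (-0.69, adjusted p = 0.0599). Against empty vector cells with TNFα, TLR5 was not called in either kind of cell. The difference was 0.31 for SIRT6 (95% interval 0.02 to 0.59, adjusted p = 0.697), with no overlap of the arrays, and -0.36 for H133W (adjusted p = 0.134). Without TNFα, H133W and SIRT6 cells differed in 0 members by limma and by the plain linear model, with 2 at an unadjusted p under 0.05 and 0.119% of all probe sets called.

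Empty vector cells were also compared with untransfected cells. The paper does not say whether untransfected cells received the transfection reagent, so this comparison may not be of DNA alone. By limma and by the plain linear model 0 members were called with TNFα, where 1 had an unadjusted p under 0.05 and 0.0329% of all probe sets were called, and 0 without TNFα, where 3 had an unadjusted p under 0.05 and 0.0933% of all probe sets were called. Nearest to a call was TLR6 207446_at without TNFα, at 3.78, 3.66 and 3.79 in empty vector cells, against 3.94, 4.39 and 4.35 in untransfected cells (-0.48, adjusted p = 0.111). The groups did not overlap, and without untransfected replicate 1 the difference was -0.63 and was called (adjusted p = 0.0475). The comparisons of SIRT6 and of H133W cells with empty vector cells use the same empty vector arrays.

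**Figure D4:**
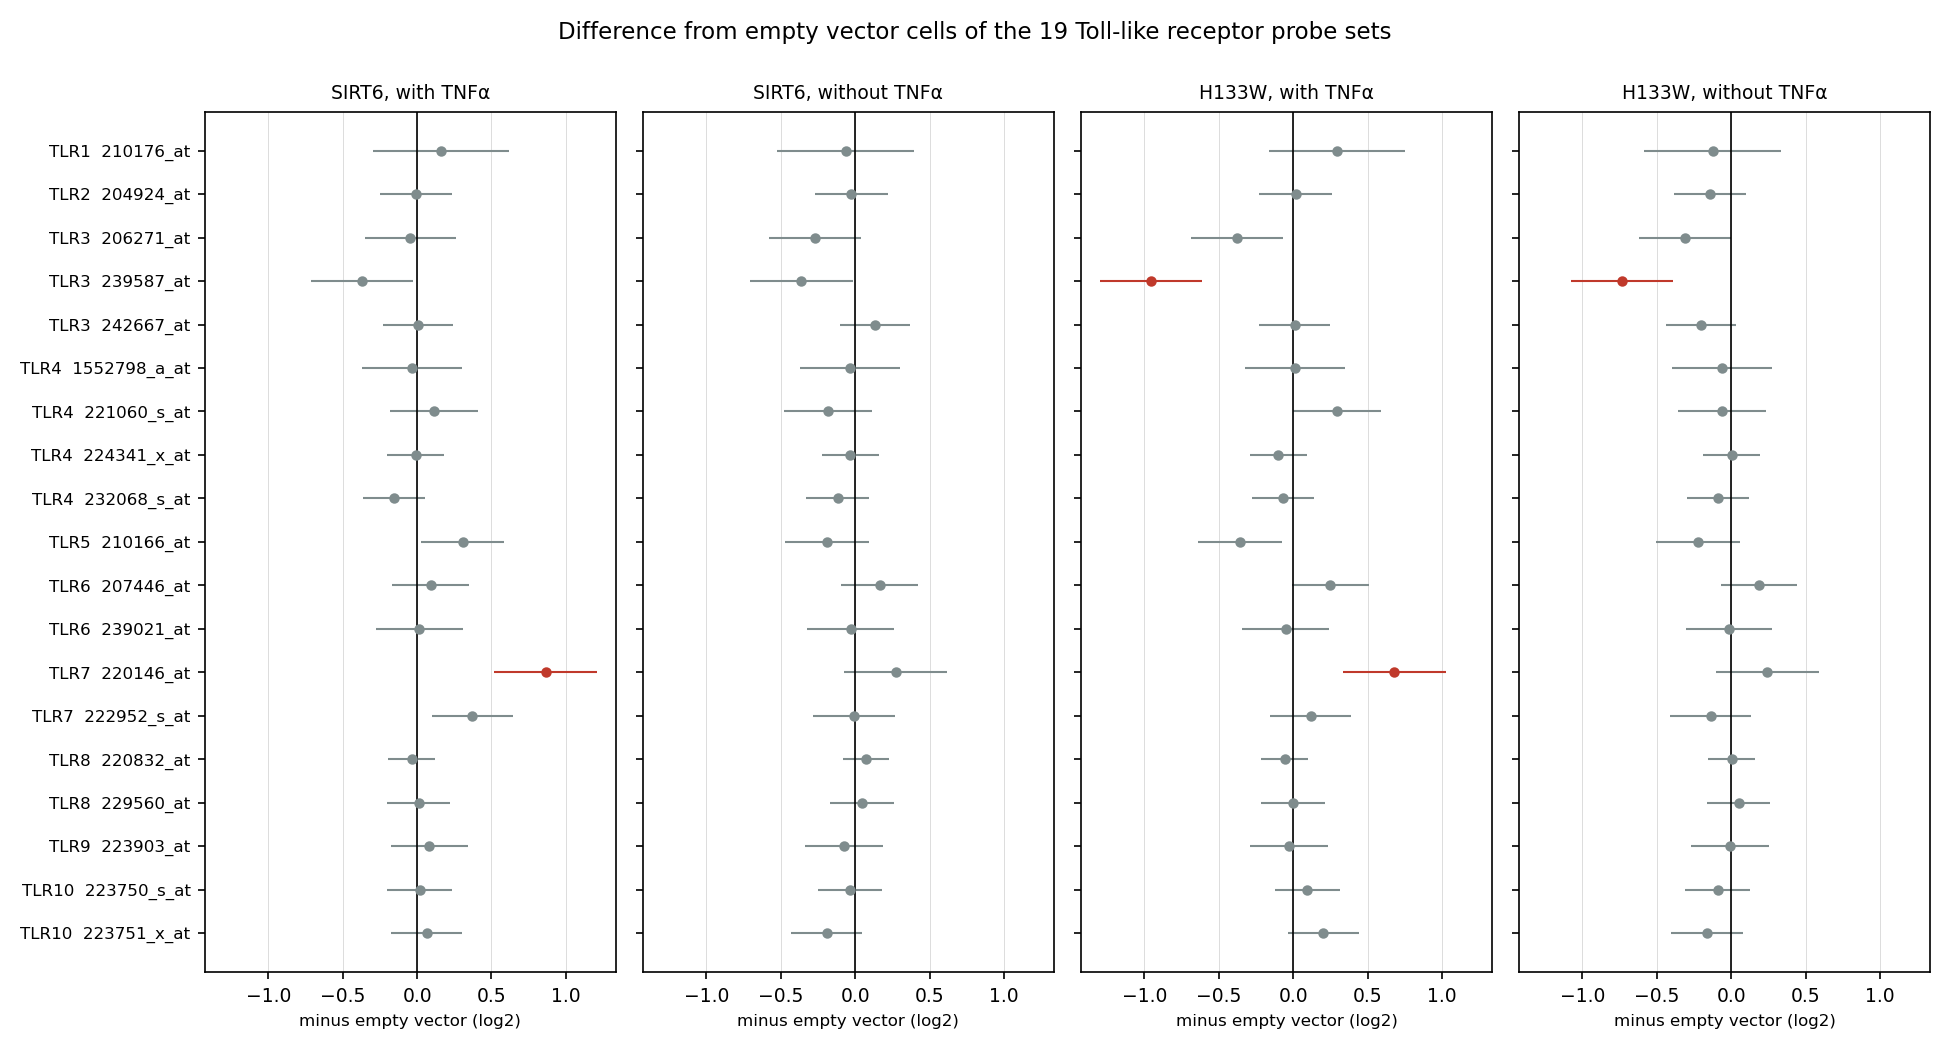
The difference from empty vector cells (log2, x axis) is plotted for each of the 19 probe sets (rows) in SIRT6 and H133W cells with and without TNFα (panels), with 95% intervals and with called probe sets in red. TLR7 220146_at lies at 0.86 in SIRT6 cells and 0.68 in H133W cells with TNFα, and TLR3 239587_at at -0.96 and -0.73 in H133W cells with and without TNFα.

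The remaining 7 genes, TLR1, TLR2, TLR4, TLR6, TLR8, TLR9 and TLR10, had 13 probe sets, of which none was called in any of the 12 comparisons between conditions. Their differences ran from -0.48 to 0.40. TLR2, the lipopeptide receptor, read 3.47 ± 0.0257 in SIRT6 cells with TNFα and 3.45 ± 0.122 without it, and kept within 3.24 and 3.77 on all 24 arrays. The 4 probe sets of TLR4, the lipopolysaccharide receptor, ran from 1.58 to 4.52 over all arrays. TLR9, the CpG receptor, kept within 4.52 and 5.28, and TLR8, which lies beside TLR7 on chromosome X and reads single-stranded RNA too, kept within 2.32 and 2.73 for 220832_at and within 2.98 and 3.62 for 229560_at. TLR10, for which no ligand is settled, kept within 2.87 and 3.51 for 223750_s_at and within 2.23 and 2.87 for 223751_x_at. TLR1 210176_at stood at 2.25, 2.49 and 3.68 in H133W cells with TNFα, against 2.48, 2.55 and 2.20 in H133W cells without it (0.40, adjusted p = 0.348), and the value of 3.68 is on the array of lowest weight. Over the 8 conditions together, a moderated F test called 4 of the 19 probe sets, 1 of TLR3 (239587_at, adjusted p = 0.00104), 1 of TLR5 (adjusted p = 0.000129) and both of TLR7 (adjusted p = 4.38e-13 and 0.000392), beside 16.1% of all probe sets.

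The proteins that work with the receptors were read through gene lists, each gene by its brightest probe set. Read in that way, the rule called 1.28% of all 19775 genes in the TNFα response of SIRT6 cells, 1.42% in that of H133W cells, 1.25% in that of empty vector cells and 1.18% in that of untransfected cells, and 0.865% and 1.72% for H133W against empty vector cells without and with TNFα. Of 23 measured co-receptors and trafficking factors, 0 were called in a TNFα response by limma or the plain linear model, with 3 at an unadjusted p under 0.05 in SIRT6 cells, 8 in H133W cells, 4 in empty vector cells and 0 in untransfected cells. Only CD14, which hands lipopolysaccharide to TLR4, was called in any comparison, higher by 0.63 in SIRT6 than in empty vector cells with TNFα (adjusted p = 0.0499), where 0.101% of all genes were called, and this was lost without any 1 of the 6 arrays (adjusted p 0.0718 to 0.356). CD14 is also in the list of blood cell markers, of which the other 12 measured were not called there. Among 24 measured adaptors and kinases, 2 rose with TNFα in every kind of cell and 0 fell. IRAK2, a kinase of the MYD88 complex, rose by 1.48 in SIRT6 cells, 1.21 in H133W cells, 1.53 in empty vector cells and 1.36 in untransfected cells. BTK, a tyrosine kinase that can bind the TIR domain, rose by 1.69 in SIRT6 cells, 1.18 in H133W cells, 1.17 in empty vector cells and 1.32 in untransfected cells. MYD88, TIRAP, TICAM1, TRAF6 and IRAK1 were not called in any comparison. Where any probe set of a gene counted, 1 more adaptor or kinase rose in each kind of cell, IKBKE in SIRT6 (0.65) and H133W cells (0.73), PELI1 in empty vector cells (0.81) and TRAF3 in untransfected cells (0.61).

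Of 14 transcription factors downstream of the receptors, 5 rose with TNFα in every kind of cell and 0 fell. RELB rose by 2.08 in SIRT6 cells, 1.86 in H133W cells, 2.53 in empty vector cells and 2.29 in untransfected cells, and IRF1, an interferon regulatory factor, rose by 1.80, 1.64, 1.93 and 1.83 in that order. NFKB1, NFKB2 and REL were the others, of which REL rose by 0.66 in H133W cells and was under the fold threshold there without H133W with TNFα replicate 1 (0.58) or replicate 2 (0.51). Relative to empty vector cells, RELB was also higher in H133W cells without TNFα (0.89, adjusted p = 0.0155), a call that ended without H133W replicate 1 (0.82, adjusted p = 0.0772) or 3 (0.91, adjusted p = 0.0547) or empty vector replicate 1 (0.77, adjusted p = 0.0847) or 3 (0.81, adjusted p = 0.0654). Of 20 negative regulators, 2 rose with TNFα in SIRT6 cells, 4 in H133W cells, 3 in empty vector cells and 3 in untransfected cells, and 0 fell. TNFAIP3, the deubiquitinase A20, rose by 3.63 in SIRT6 cells, 3.27 in H133W cells, 3.62 in empty vector cells and 3.87 in untransfected cells, and NFKBIA, the inhibitor IκBα, by 2.13, 1.85, 2.34 and 2.48 in that order. CYLD, another deubiquitinase, rose by 0.63 in H133W, 0.59 in empty vector and 0.64 in untransfected cells, and TNIP1, a partner of A20, by 0.59 in H133W cells. These smaller rises were under the fold threshold without single arrays, CYLD without H133W with TNFα replicate 3 (0.51), empty vector replicate 1 or 3 (0.55 each), empty vector with TNFα replicate 2 (0.55) or untransfected with TNFα replicate 3 (0.57), and TNIP1 without H133W replicate 1 (0.56) or H133W with TNFα replicate 3 (0.43). ATF3, a repressor of receptor-induced cytokine genes, was higher than in empty vector cells by 1.10 in H133W cells without TNFα (adjusted p = 6e-08) and by 0.95 with it (adjusted p = 3.83e-07). It was also higher in SIRT6 than in empty vector cells without TNFα, by 0.59 (adjusted p = 0.00187), where 0.0506% of all genes were called, and this was under the fold threshold without SIRT6 replicate 3 (0.58) or empty vector replicate 1 (0.53). Of 15 other sensors of nucleic acids and microbes, RIGI, a sensor of viral RNA in the cytoplasm, rose with TNFα in untransfected cells by 0.80 (adjusted p = 0.00181) and in empty vector cells by 0.62 (adjusted p = 0.0182). A dimmer RIGI probe set rose in SIRT6 cells by 0.59 (adjusted p = 0.0254) and in untransfected cells by 0.84 (adjusted p = 0.00126). The rise in empty vector cells was not called without empty vector replicate 2 (0.57) or, among those with TNFα, replicate 2 (0.63, adjusted p = 0.0623) or replicate 3 (0.53). IFIH1, a related sensor, rose in H133W cells by 0.60 (adjusted p = 0.00032), which was under the fold threshold without H133W replicate 3 (0.49) or H133W with TNFα replicate 3 (0.52). Of 10 receptors of the IL1 and IL18 family, IL18R1 rose by 0.93 in SIRT6 cells (adjusted p = 0.00552), by 0.71 in empty vector cells (adjusted p = 0.046) and by 0.95 in untransfected cells (adjusted p = 0.00442), and the call in empty vector cells was lost without any 1 of 5 of the 6 arrays compared (adjusted p 0.107 to 0.166). The median TNFα changes of the genes of a list were small beside these examples, from 0.06 to 0.15 for the transcription factors, from -0.01 to 0.13 for the adaptors and kinases and from -0.02 to 0.06 for the negative regulators over the 4 kinds of cells, against -0.04 to 0.01 for all genes.

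The genes that lie beside the receptors in RefSeq were read as well. TLR10, TLR1 and TLR6 lie together on chromosome 4, where TLR2 and TLR3 also lie apart from them, TLR7 and TLR8 lie together on chromosome X, and TLR5, TLR9 and TLR4 lie alone on chromosomes 1, 3 and 9. Of the 28 nearest protein-coding neighbours, 26 were measured, and 0 were called in any of the 12 comparisons by their brightest probe set, by limma or the plain linear model, with 1 to 9 at an unadjusted p under 0.05. By a dimmer probe set, SUSD4 near TLR5 rose with TNFα in untransfected cells (0.90, adjusted p = 0.000953). The 4 beside TLR7 and TLR8 are FRMPD4, PRPS2, TMSB4X and FAM9C, and 0 of any of their probe sets were called either. TLR8-AS1, an antisense transcript at TLR8, was not called in any comparison.

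The genes most like a changed member were ranked by Pearson's r over the 8 condition means, among 6953 single-gene probe sets that passed the F test, as a description. TLR7 220146_at was closest to TNFRSF9 (0.998), a receptor of the TNF family, then to REL (0.992), USP43 (0.991), EGFL6 (0.988) and SSTR2 (0.987). Over the 24 arrays the closest 5 were USP43 (0.980), CD69 (0.978), IRF1 (0.977), CXCL8 (0.976) and REL (0.976), so that 2 of 5 were in both. TLR5 was closest to LINC01366 (0.967), GABPB1, SIN3A, CXCL2 and FIBIN (0.944), of which 1 of 5 was shared with the list over 24 arrays. TLR3 239587_at was closest to CDON and CENPA (0.985 each), PSD3, NT5DC1 and PGRMC2, and 0 of 5 were shared. TNFRSF9 was higher in SIRT6 than in empty vector cells with TNFα by 0.67 and in H133W cells by 0.54, and neither passed the test (adjusted p = 0.333 and 0.115). With 8 points that split into conditions with and without TNFα, many TNFα-induced transcripts reach a high r with TLR7.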

How the data were processed

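Total RNA was hybridised to Affymetrix HG U133 Plus 2.0 arrays. Intensities were RMA normalized by the authors (ArrayStudio, Omicsoft), and the deposited log2 values of 54675 probe sets were used as given. RMA forces a common distribution on the arrays and compresses changes of dim probe sets. Gene names came from the platform's table, updated by Entrez ID, and 11777 probe sets had none.

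In R 4.3.3, limma 3.58.1 estimated 1 mean per condition from all 24 arrays (16 residual degrees of freedom), with Benjamini-Hochberg adjustment across the probe sets of a comparison. The 4 differences of responses were called on the adjusted p alone. The script was tested on simulated data. By the naming rule all members are given, and up to 4 called genes per list and comparison. Genes named as not called were chosen after their values were seen. Members and lists were chosen with earlier results of these data known. Having 3 arrays per condition limits the precision, and no 2 arrays held the same values (highest correlation 0.998).

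Alternatives were a plain linear model, since the study names a general linear model, the arrays compared alone and a variance trend. Others were filters on dim probe sets, other normalizations and fold thresholds, a replicate block, array weights, and leaving out arrays. The protein and imaging experiments were not analysed here.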

Additional observations from a re-analysis of the deposited data

How the results depend on the processing

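The TNFα rise of TLR7 220146_at in all 4 kinds of cells, and those of TLR5 and TLR7 222952_s_at in SIRT6 cells, kept their direction under every alternative run on them, and their calls under every one but the fold change over 2, at which TLR5 and TLR7 222952_s_at were not called, and none of the 468 alternative values of the members and their counts changed sign. The count of members called changed as follows. Under the plain linear model, and with the replicate block, it was 0 for SIRT6 against empty vector with TNFα (TLR7 0.86, adjusted p = 0.0693 and 0.0664). With only the arrays compared in the fit it was 1 for the TNFα response of H133W cells (TLR7 222952_s_at lost, adjusted p = 0.238) and 0 for SIRT6 against empty vector (0.0539), H133W against empty vector (TLR3 0.0774, TLR7 0.292) and H133W against SIRT6 (0.524), all with TNFα. At a fold change over 2 it was 1 for the TNFα responses of SIRT6 and of H133W cells and 0 for SIRT6 against empty vector with TNFα, H133W against empty vector without and with TNFα, and H133W against SIRT6 with TNFα. Without the 3 arrays of lowest weight, and with array weights, it was 1 for H133W against empty vector with TNFα (TLR7 0.51, adjusted p = 0.0745, and 0.52, adjusted p = 0.0312, under the fold threshold). For H133W against SIRT6 with TNFα those 2 settings lost TLR5 (-0.50 and -0.52) and called TLR3 239587_at instead (-0.70, adjusted p = 0.00203, and -0.68, adjusted p = 0.00194). Where the fit held fewer arrays the spread was estimated from fewer values, and the cause of the other shifts was not tested.

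Each array of a comparison was left out in turn, and leaving out arrays outside the comparison was not scored. This gave 0 to 1 members for empty vector against untransfected without TNFα. For the TNFα responses of empty vector and of H133W cells it gave 1 to 2 each. It gave 0 for SIRT6 against empty vector with TNFα in every case. For H133W against empty vector it gave 0 to 1 without TNFα and 1 to 2 with it, and 0 to 1 for H133W against SIRT6 with TNFα. The other 9 counts did not move. Among the list genes, single arrays ended calls of REL, CYLD, TNIP1, IFIH1, RIGI and IL18R1 in a TNFα response, of ATF3 (SIRT6 cells) and RELB (H133W cells) against empty vector without TNFα, and of CD14 (SIRT6 cells) with it. With only the arrays compared in the fit, those of BTK (adjusted p = 0.216), NFKB2 (0.126), REL (0.388), CYLD (0.183), TNIP1 (0.295) and IFIH1 (0.234) in the TNFα response of H133W cells were lost, as were RIGI (0.114) and IL18R1 (0.163) in that of untransfected and IL18R1 (0.058) in that of empty vector cells, and ATF3 (0.257), RELB (0.0667) and CD14 (0.103) against empty vector. Centring arrays on their medians put CYLD (empty vector cells, 0.58) and ATF3 (SIRT6 cells, 0.58) under the fold threshold, the 2 weight settings did so for CYLD, TNIP1 and IFIH1 in H133W cells (0.43 to 0.52), and leaving out the 3 arrays did so for RIGI in empty vector cells (0.57). The plain linear model lost IL18R1 in empty vector cells (0.0839) and CD14 (0.0732), and the replicate block lost IL18R1 there (0.0639). The replicate numbers showed no clear pairing of the arrays, though 3 replicates per condition cannot exclude one. The deviations of same-numbered arrays correlated at -0.383 to 0.28, with all 3 pairs over 0.1 in 0 of 12 comparisons. Of 24 arrays, 11 were closest to their own number, which was not tested against chance. Beside the count given above the replicate block moved no count of members.

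A filter on probe sets under the median left no member to test, and one under the lower quartile, added after the data were seen, changed no count among the members it kept. By their means over the 24 arrays all members lie under the median signal, though TLR7 220146_at and TLR3 239587_at passed it on single arrays, and no detection call was used.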
